A study of Mus musculus with 6 samples.

Results

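Cholinergic neuron genes were followed through 6 RNA-seq libraries of mouse septum, as 8 genes read by their symbols from the deposited counts and FPKM: *Chat*, *Slc18a3*, *Slc5a7*, *Ache*, *Ngfr*, *Lhx8*, *Gbx1* and *Isl1*. All 8 were among the 35415 genes listed, and all 8 were among the 17255 genes that had enough counts to be tested. The mice were wild-type C57BL/6 females, delivered at about 8 weeks of age and acclimated for 1 week, and then kept for 12 weeks on control chow or on the same chow containing olanzapine, an antipsychotic, at 50 mg per kg of feed. The tissue, labelled lateral septum, was dissected by hand under a microscope, and each library was made from the pooled tissue of 3 mice. There were 3 control pools (Control 1 to 3) and 3 olanzapine pools (Olanzapine 1 to 3). Every p-value therefore measures the spread between pools, and the spread between single mice was not measured.

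Cholinergic neurons of the basal forebrain lie in the medial septum and the neighboring diagonal band, next to the lateral septum, and their axons supply the hippocampus and cortex with acetylcholine. In their terminals, choline taken up from outside the cell is joined to an acetyl group, the product is loaded into vesicles, and after release it is split again so that the choline can be reused. *Slc5a7* encodes the choline transporter, *Chat* the synthesizing enzyme choline acetyltransferase, *Slc18a3* the vesicular acetylcholine transporter and *Ache* acetylcholinesterase, which splits the transmitter. *Ngfr* encodes the p75 neurotrophin receptor, a surface marker of these neurons, while *Lhx8*, *Gbx1* and *Isl1* encode homeodomain transcription factors used in forebrain cholinergic development. Striatal interneurons are also cholinergic and share most of these genes.

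Summed counts per library were between 38208153 and 39868872. *Lhx6* and *Nkx2-1*, which are expressed in medial septal neurons and also in striatal and cortical interneurons of the same embryonic origin, were present, with *Lhx6* at 10.2 ± 1.86 FPKM and *Nkx2-1* at 2.52 ± 0.532 FPKM (SD, n = 6 pools), whereas *Mnx1*, which marks spinal motor neurons, was at 0 counts in every pool. In the same list of cholinergic markers outside the forebrain, *Prph* had 13 to 77 counts per pool and *Pou4f1* 0 to 29, and the 4 genes of the list summed to between 0.335 and 2.18 CPM. The summed level of 6 lateral septal neuron markers was between 531 and 765 CPM (counts scaled to a common library size), and that of 10 striatal projection neuron markers was between 1457 and 2937 CPM. How the cholinergic transcripts divided between septal and striatal cells was not tested. Neighboring tissue differed among the pools: 8 choroid plexus markers summed to between 65.7 and 7507 CPM, 6 meningeal markers to between 35.0 and 314 CPM, and 8 cortical glutamatergic markers to 989 CPM in Olanzapine 1 against 78.9 to 153 CPM in the other 5 pools. Between the diets, 10 of 10 hepatocyte markers were called higher with olanzapine (summed 12.3 to 22.7 CPM in control pools and 247 to 308 CPM in olanzapine pools), as were 4 of 6 nuclear-retained noncoding RNAs (2261 to 2808 CPM against 5064 to 6139 CPM). In bulk tissue, fewer cholinergic cells and less RNA per cell cannot be told apart.

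*Chat* and *Slc18a3* share a locus. In GENCODE, on GRCm38, *Chat* spans chr14:32408203-32465989 on the minus strand, and the single exon of *Slc18a3* lies at chr14:32462438-32464850 on the same strand, inside the 4893 bases of the first *Chat* intron and 1139 bases downstream of the *Chat* start. The exons of the 2 genes shared 0 bases, so reads over exons could be told apart by position, although whether intronic reads of *Chat* could be counted for *Slc18a3* was not tested. The other members lay apart from each other: *Slc5a7* at chr17:54273590-54299034 (minus), *Ache* at chr5:137287519-137294466 (plus), *Ngfr* at chr11:95568818-95587735 (minus), *Lhx8* at chr3:154306294-154330659 (minus), *Gbx1* at chr5:24502757-24527202 (minus) and *Isl1* at chr13:116298281-116309689 (minus). *Ache* shared 98 exonic bases with *Gm42456* on the opposite strand, which had 14 to 45 counts per pool against 3084 to 3950 for *Ache*. *Gm2990*, an antisense transcript not analysed here, runs from the first *Chat* intron across the *Chat* start with 0 exonic bases shared with either gene, and it starts 191 bases upstream of the *Slc18a3* start, inside the *Slc18a3* stretch printed next. Upstream of *Lhx8*, the noncoding transcript *AI606473* (chr3:154330821-154334254, plus strand) started 161 bases away and ran in the opposite direction.

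The stretches directly before the starts of *Chat* and *Slc18a3*, and the stretch between *Lhx8* and *AI606473*, are shown because these neighbors are compared with each other below. They were read from RefSeq promoters on GRCm38.p6, which held 7 of the 8 members, all but *Gbx1*. The *Chat* stretch is chr14:32465990-32466159 and the *Slc18a3* stretch is chr14:32464851-32465100, both given on the minus strand, and the stretch between *Lhx8* and *AI606473* is chr3:154330660-154330820, given on the plus strand. Capitals mark CCAAT in the *Chat* stretch, and CCGCCC, which is GGGCGG read from the other strand, in the *Slc18a3* stretch.
Chat upstream: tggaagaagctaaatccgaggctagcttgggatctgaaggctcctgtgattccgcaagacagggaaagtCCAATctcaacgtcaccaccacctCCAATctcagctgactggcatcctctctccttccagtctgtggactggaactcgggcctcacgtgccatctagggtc
Slc18a3 upstream: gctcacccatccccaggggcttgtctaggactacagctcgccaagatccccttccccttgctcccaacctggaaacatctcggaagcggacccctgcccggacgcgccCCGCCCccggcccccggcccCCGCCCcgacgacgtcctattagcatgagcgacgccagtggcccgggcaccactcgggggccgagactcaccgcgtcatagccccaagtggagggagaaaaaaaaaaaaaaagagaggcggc
Lhx8 to AI606473: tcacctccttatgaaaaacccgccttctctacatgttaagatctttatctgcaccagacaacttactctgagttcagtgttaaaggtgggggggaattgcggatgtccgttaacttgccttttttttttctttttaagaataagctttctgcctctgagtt

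Each stretch was searched on both strands for 5 motifs. These were TAATTA, bound by homeodomain proteins, GGGCGG, known as the GC box, CCAAT, the site of nuclear factor Y, TATAAA, the TATA box, and TTCAGCACC, part of the element bound by REST. The *Chat* stretch of 170 bases held CCAAT 2 times, at positions 70 and 94 counted from its 5' end, and 23.3% of 32851 promoters held that motif in a window of the same length and offset. The *Slc18a3* stretch of 250 bases held GGGCGG on the reverse strand 2 times, at positions 109 and 129, as against 32.7% of promoters with at least 1 match. It was also the richest of the 3 in G and C (66.0%, median of all promoters 52.4%) and held 21 CpG dinucleotides (median 6). The 161 bases between *Lhx8* and *AI606473* held none of the 5 motifs and were 40.4% G and C (median 54.0%). Among the motifs without a match, TAATTA was found in 3.02 to 4.84% of the corresponding windows of all promoters, TATAAA in 8.04 to 12.4% and TTCAGCACC in 0.186 to 0.301%, GGGCGG in 19.5% and 29.3% of those for the *Chat* and *Lhx8* stretches, and CCAAT in 33.8% and 25.7% of those for the *Slc18a3* and *Lhx8* stretches.

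**Figure D1:**
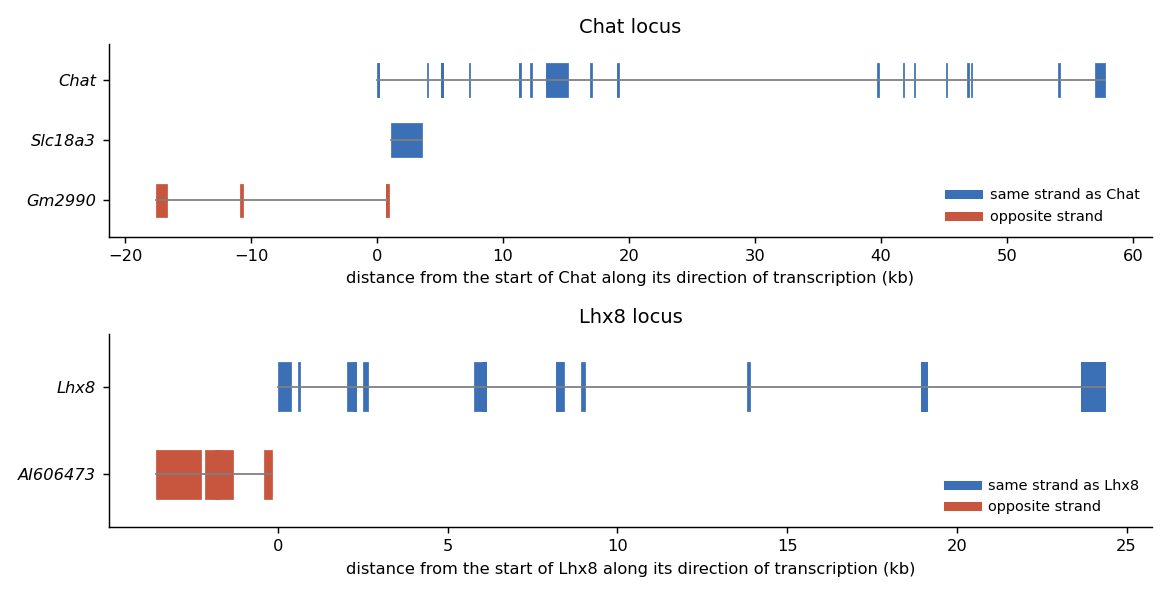
Gene models of the Chat locus (upper) and the Lhx8 locus (lower) in GENCODE, drawn to scale, with boxes for exons and the distance in kilobases from the start of Chat or Lhx8 along its direction of transcription. Slc18a3 lies within the first intron of Chat, starting 1139 bases downstream, and AI606473 starts 161 bases upstream of Lhx8 on the opposite strand.

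On the per-length scale of the deposited FPKM, *Ache* was the highest of the 8 genes and *Gbx1* the lowest. *Ache* had 19.5 ± 1.86 FPKM (SD, n = 6 pools), *Isl1* 6.70 ± 1.11 FPKM and *Chat* 5.14 ± 1.16 FPKM. *Lhx8* had 5.02 ± 1.04 FPKM, *Ngfr* 4.82 ± 1.47 FPKM and *Slc5a7* 4.30 ± 1.02 FPKM. *Slc18a3* had 3.26 ± 0.352 FPKM and *Gbx1* 2.19 ± 0.374 FPKM. *Ache* exceeded *Isl1*, *Isl1* exceeded *Chat*, *Slc5a7* exceeded *Slc18a3* and *Slc18a3* exceeded *Gbx1* in 6 of 6 pools. The order of *Chat*, *Lhx8*, *Ngfr* and *Slc5a7* changed between pools, with each neighbor in that order higher in 3 or 4 of 6 pools. Their means overlapped within their SDs, a spread between pools that does not compare genes within a pool. On this scale *Chat* exceeded *Slc5a7* in every pool, with a ratio of *Slc5a7* to *Chat* between 0.743 and 0.906. *Gad1*, *Slc32a1* and *Gad2*, genes of GABAergic neurons, the main neurons of the lateral septum, stood at 134, 84.0 and 80.0 FPKM.

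The order depended on the gene length used. Each FPKM value corresponded to the count divided by a fixed length and by the summed counts of its library, and the implied length was 1452 bases for *Gbx1*, 2526 for *Isl1* and 2810 for *Chat*, whereas the exons of these genes cover 3475, 3959 and 4703 bases in GENCODE. With the GENCODE lengths, an alternative chosen after the data were seen, *Chat* stood at 3.07, *Isl1* at 4.28 and *Gbx1* at 0.914 on the FPKM scale, *Lhx8* and *Ngfr* (4.95 and 4.76) came next after *Ache* (19.0), and only *Ache* and *Gbx1* kept their places in the order.

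No member passed the test for a difference between the diets (3 pools against 3), made by edgeR's quasi-likelihood method, with p-values adjusted after Benjamini and Hochberg across the 17255 genes. Of the 8 genes, 0 passed an adjusted p under 0.05 with a log2 fold change above 1 or below -1, which 1.01% of all tested genes did, and 0 passed an adjusted p under 0.05 alone, which 2.32% did (1.83% in the higher direction). At an unadjusted p under 0.05 the count was also 0, both with edgeR (17.6% of all tested genes) and with DESeq2, and DESeq2 (1.72% of all genes called) and limma on log2(FPKM + 1) (0.374%) called 0 of the 8. Control and olanzapine pools overlapped in all 8, while they did not overlap in 24.3% of tested genes. The median log2 fold change of the 8 was -0.0949, with 2 above and 6 below 0, beside a median of 0.0039 over all genes tested. The 95% intervals of all 8 lay between 0.511-fold, the lower bound of *Ngfr*, and 1.54-fold, the upper bound of *Lhx8*, so that a change of 2-fold in either direction was outside every interval.

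For synthesis, *Chat* stood at 19.5, 14.3 and 10.7 CPM in Control 1, 2 and 3, and at 11.0, 15.7 and 15.5 CPM in Olanzapine 1, 2 and 3. The highest and the lowest pool were both control pools. The group means were 14.8 ± 4.41 and 14.1 ± 2.65 CPM (SD, n = 3 pools), a log2 fold change of -0.07 (SE 0.23, 95% interval -0.60 to 0.46, adjusted p = 0.901, edgeR). Without Control 1 the log2 fold change was 0.17, and without Olanzapine 1 it was 0.074. Counting error was smaller than the spread: 761 counts in Control 1 gave a 95% Poisson interval of 18.1 to 20.9 CPM, and 421 counts in Control 3 gave 9.69 to 11.8 CPM, for counting error only.

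For vesicle loading, *Slc18a3* stood at 9.36, 8.06 and 7.13 CPM on control chow, and at 7.39, 8.19 and 7.08 CPM on olanzapine chow. It varied less than *Chat*, in whose intron it lies, with 1.32-fold between the highest and the lowest pool as against 1.82-fold. Its log2 fold change was -0.12 (SE 0.15, 95% interval -0.46 to 0.23, adjusted p = 0.744, edgeR), which was -0.0099 without Control 1 and -0.20 without Control 3.

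For choline uptake, *Slc5a7* stood at 34.4, 24.7 and 18.9 CPM on control chow, and at 18.5, 22.8 and 22.6 CPM on olanzapine chow. Control 1 and 2 were the highest, and Control 3 lay among the olanzapine pools. The means were 26.0 ± 7.83 and 21.3 ± 2.43 CPM, with a log2 fold change of -0.29 (SE 0.20, 95% interval -0.76 to 0.18, adjusted p = 0.507, edgeR), which came to -0.037 without Control 1 and to -0.47 without Control 3 (adjusted p = 0.261).

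For breakdown, *Ache* stood at 101, 84.5 and 79.0 CPM on control chow, and at 81.4, 93.3 and 88.1 CPM on olanzapine chow. This was the least variable member, 1.28-fold between its highest and lowest pool, and it had the narrowest interval (log2 fold change -0.0093, SE 0.10, 95% interval -0.25 to 0.23, adjusted p = 0.973, edgeR). *Ache* is expressed more widely in the brain than the other 3 transmitter genes.

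*Ngfr*, which binds neurotrophins, stood at 26.8, 15.0 and 14.8 CPM on control chow, and at 13.7, 16.0 and 12.5 CPM on olanzapine chow. Control 1 lay far above the other 5 pools, which overlapped. *Ngfr* had the widest range of the 8, 2.15-fold, and the most negative log2 fold change (-0.43, SE 0.24, 95% interval -0.97 to 0.12, adjusted p = 0.392, edgeR), which was -0.089 without Control 1. Markers of Schwann cells, another source of p75, summed to between 0.914 and 1.98 CPM.

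Among the transcription factors, *Lhx8*, needed for the forebrain cholinergic fate, stood at 16.4, 10.4 and 9.14 CPM on control chow, and at 12.3, 14.2 and 12.8 CPM on olanzapine chow. All 3 olanzapine pools lay between Control 1 and the other 2 control pools, and the log2 fold change of 0.13 (SE 0.21, 95% interval -0.36 to 0.62, adjusted p = 0.803, edgeR) was 0.42 without Control 1 (adjusted p = 0.274) and -0.023 without Control 3. *Gbx1* stood at 4.07, 2.81 and 2.64 CPM on control chow, and at 3.01, 3.59 and 2.96 CPM on olanzapine chow, from 104 to 159 counts (log2 fold change 0.0073, SE 0.23, adjusted p = 0.991, edgeR). *Isl1*, which also marks striatal projection neurons of the direct pathway, stood at 21.4, 17.7 and 14.3 CPM on control chow, and at 13.4, 16.7 and 18.3 CPM on olanzapine chow (log2 fold change -0.14, SE 0.17, adjusted p = 0.721, edgeR).

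**Figure D2:**
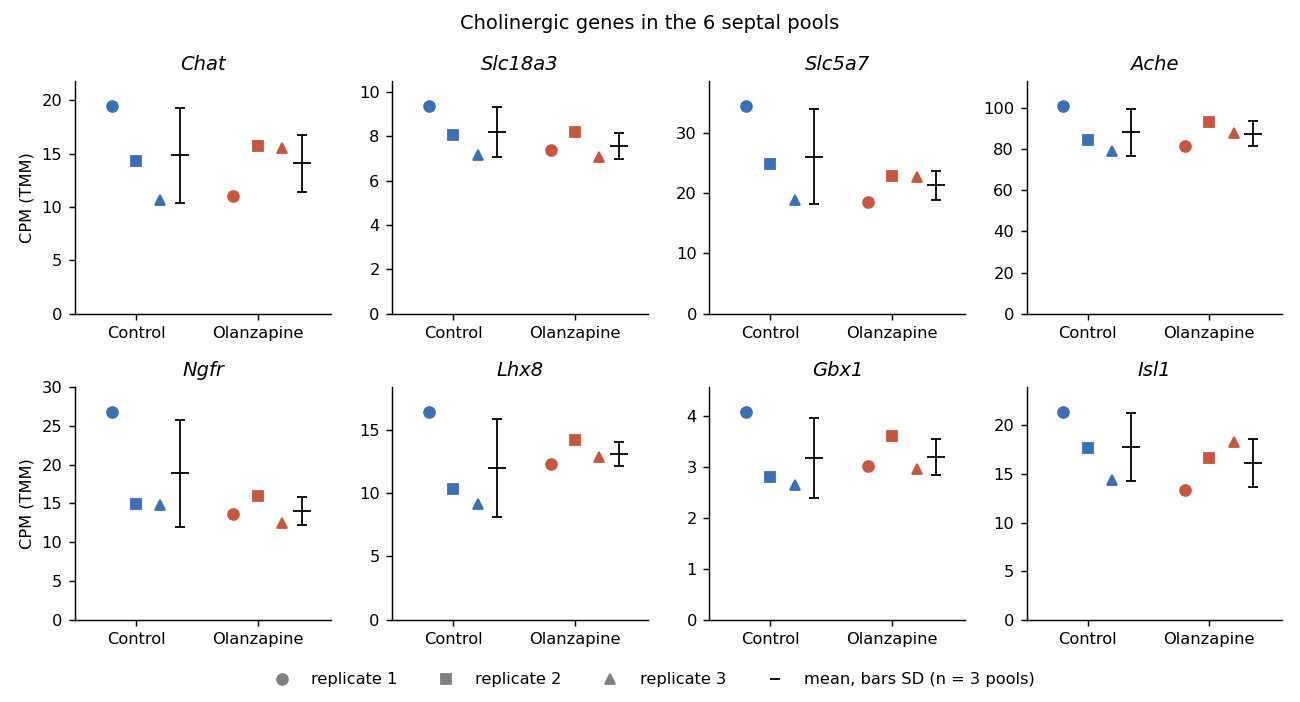
CPM (TMM-scaled) of the 8 cholinergic genes in each pool, by diet, with the mean and SD of 3 pools beside the points. Control 1 (blue circle) is the highest pool in all 8 panels, and the control and olanzapine pools overlap in each.

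With Control 1 included, the control pools of every member spanned more CPM than separated the diet means, and so did the olanzapine pools except for *Ngfr* and *Slc5a7*. Control 1 was the highest of the 6 pools for 8 of 8 members, as it was for 17.6% of all tested genes and for 15 of 45 other cholinergic pathway genes (33.3%). Control 3 was the lowest pool for 4 members and among the lowest 2 for 7, and Olanzapine 1 was among the lowest 2 for 5. Olanzapine 2 was among the highest 2 for 6 members. The range from the lowest to the highest pool, 1.28-fold to 2.15-fold, can be set beside a median of 1.35-fold over 14271 genes with a mean of at least 50 counts.

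The 8 genes varied together across pools. Over the 28 pairs, Pearson's r of log2 CPM was between 0.603 and 0.954 with a median of 0.815 (n = 6 pools, which share depth, dissection and tissue content, given as a description). *Chat* went most closely with *Isl1* (0.954), *Ache* (0.950) and *Slc5a7* (0.915), and less closely with its neighbor *Slc18a3* (0.762). Relative to the mean of each diet group, the median was 0.901. Much of the common pattern rested on 1 pool: without Control 1 the median was 0.568, and 25 of 28 pairs were above 0 (n = 5 pools). The pairs that included *Ngfr* were then between -0.127 and 0.752 (median 0.165), and the 21 pairs without it between 0.198 and 0.929 (median 0.614). *Lhx8* and *Gbx1* kept an r of 0.902 without Control 1 (0.941 with it), whereas *Chat* and *Slc18a3* had 0.483.

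The summed markers of other cell types differed in how they went with the mean of the 8 genes. Pearson's r with that mean over the 6 pools was 0.60 for lateral septal neurons, 0.30 for the other medial septal neuron markers, -0.12 for striatal projection neurons, -0.44 for cortical neurons, -0.53 for choroid plexus, -0.47 for meninges, -0.11 for hepatocytes and -0.10 for nuclear-retained RNA. The medial septal sum was 115 to 178 CPM, of which *Slc17a6* gave 33.5 to 112 CPM. In that list *Nkx2-1* and *Lhx6* singly had an r of 0.765 and 0.763 (0.800 and 0.549 without Control 1). For *Slc17a6* and *Pvalb*, the rest of the list, r was not taken singly. The GABAergic genes *Gad1*, *Slc32a1* and *Gad2* had an r of 0.788, 0.753 and 0.643 with the mean of the members (0.492, 0.361 and 0.214 without Control 1) and of 0.881, 0.801 and 0.699 with *Chat*, over the 6 pools. Control 1, highest for the members, was also the highest pool for the lateral septal list (765 CPM) and for *Gad1*, *Gad2* and *Slc32a1*. It was the lowest pool for the striatal list and the second lowest for choroid plexus and meninges, where Olanzapine 3 was the lowest. The part of dissection in the members' levels was not tested.

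**Figure D3:**
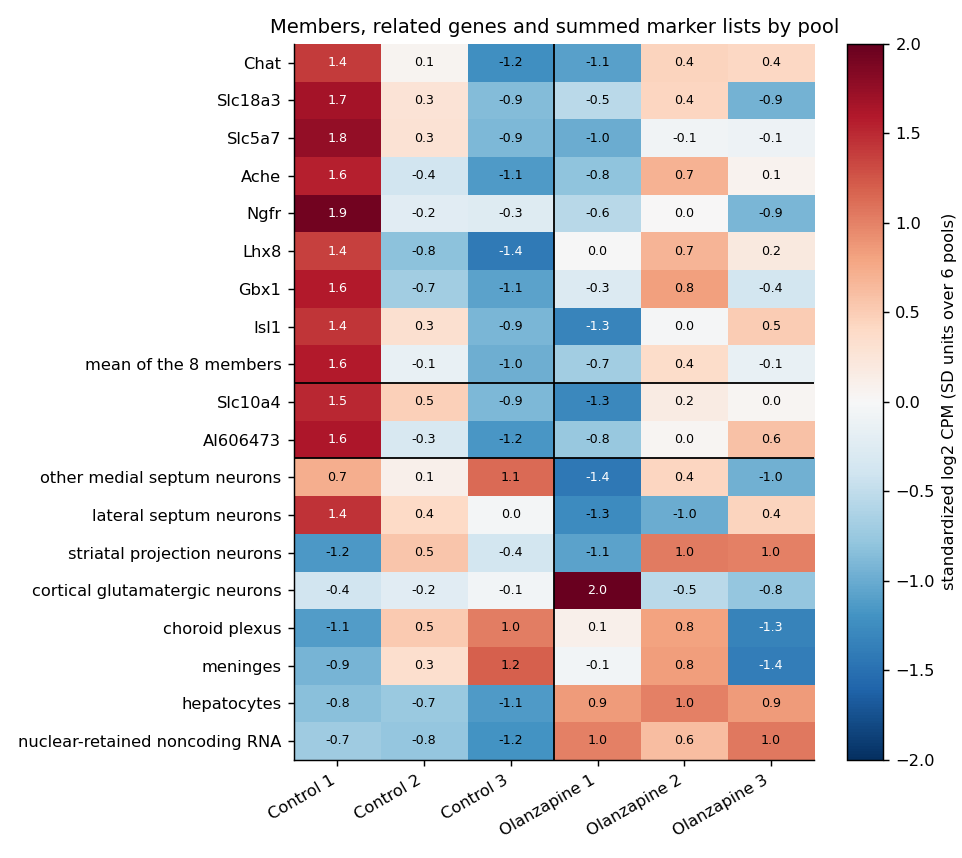
Standardized log2 CPM (SD units over the 6 pools, printed in each cell) of the 8 members and their mean, of 2 related genes, and of the summed marker lists. Members are highest in Control 1 and mostly low in Control 3 and Olanzapine 1, while the hepatocyte and nuclear-retained RNA lists separate the diets.

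Genes with the pattern most like the mean of the 8 members were *Zfp563* (r = 0.998), *R74862* (0.995), *Rhov* (0.964), *Hes5* (0.957), *Gm12258* (0.957), *Mul1* (0.957), *Zfp39* (0.952) and *Inpp1* (0.952), over 6 pools. An r above 0.9 was found for 45 of 14271 genes (0.315%), a number to be read with the small n. For *Chat* alone they were *Rab27a* (0.987), *Mul1* (0.968), *Ybey* (0.967), *Myo18b* (0.965) and *Hes5* (0.960). Among genes known from cholinergic neurons, *Slc10a4*, a vesicular transporter-like protein of cholinergic terminals, had an r of 0.912 with the mean of the members (rank 34) and 0.803 without Control 1. Most of the wider cholinergic pathway did not follow the members this closely. Of 34 listed pathway genes with a mean of at least 50 counts, 21 had an r above 0 with the members' mean and 8 an r over 0.7 (3.26% of all genes), with a median of 0.230. Without Control 1 these counts were 18 and 3 (5.77% of all genes over 0.7), with a median of 0.019. *Sort1* and *Ldb2* of the trophic and identity list were at -0.19 and -0.29 over the 6 pools. *AI606473*, the transcript facing *Lhx8* across the 161 bases printed above and chosen after its values were seen, stood at 4.53, 3.31 and 2.89 CPM on control chow, and at 3.09, 3.52 and 3.84 CPM on olanzapine chow. Its r was 0.926 with the members' mean (rank 23), 0.950 with *Chat* and 0.851 with *Lhx8*, and its log2 fold change was -0.04 (SE 0.22, adjusted p = 0.947, edgeR). *Lhx6*, which is expressed in neurons of the same embryonic origin as *Lhx8*, had an r of 0.927 with *Lhx8* and 0.763 with the members' mean.

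Because the pools differed in the level of all 8 genes, each of the other 7 was also expressed relative to *Chat* in the same pool, as the log2 ratio of counts. *Slc5a7* was at 0.82, 0.79 and 0.82 on control chow and at 0.74, 0.54 and 0.54 on olanzapine chow. The groups did not overlap, the control values were nearly identical, and the difference was -0.20. The nearest values of the 2 groups were 0.79 in Control 2 and 0.74 in Olanzapine 1. Counting error alone was 3.6 to 4.9% of the count per pool for *Chat* and 2.7 to 3.8% for *Slc5a7*. Neither the closeness of the control values nor the gap between the groups was tested against it. A ratio to *Chat* that was lower in every olanzapine pool was found for 1.48% of tested genes, and a ratio without overlap in either direction for 5.79%. These shares are not a like reference for *Slc5a7*, whose r with *Chat* was 0.915. Over genes with a mean of at least 50 counts the median r with *Chat* was -0.0155. With 3 pools against 3 the two-sided exact permutation test cannot go below p = 0.1, which *Slc5a7* reached (adjusted p = 0.7 over 7 ratios). Without any single pool the difference lay between -0.27 and -0.17.

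The other 6 ratios overlapped between the diets. *Ngfr* relative to *Chat* differed by -0.33 (exact permutation p = 0.2) and *Lhx8* by 0.22 (exact permutation p = 0.3), and the remaining 4 differed by -0.09 to 0.08 (exact permutation p = 0.4 to 0.8), with adjusted p between 0.7 and 0.8. Single pools moved these differences. *Ngfr* lay between -0.48 (without Olanzapine 1) and -0.16 (without Olanzapine 3), and *Lhx8* between 0.10 (without Olanzapine 1) and 0.32 (without Olanzapine 3). *Ache* lay between -0.070 (without Control 1) and 0.18 (without Control 3), *Gbx1* between -0.050 (without Olanzapine 1) and 0.21 (without Olanzapine 3), and *Isl1* between -0.16 (without Control 1) and -0.018 (without Control 3). *Slc18a3* relative to *Chat* differed by -0.06 between diets, from -0.21 without Olanzapine 1 to 0.066 without Olanzapine 3, and ranged over 0.556 log2 units between pools, from -0.58 in Control 3 and Olanzapine 1 to -1.13 in Olanzapine 3. On the FPKM scale the ratio of *Slc18a3* to *Chat* was between 0.530 and 0.780, and it depends on the *Chat* length used.

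**Figure D4:**
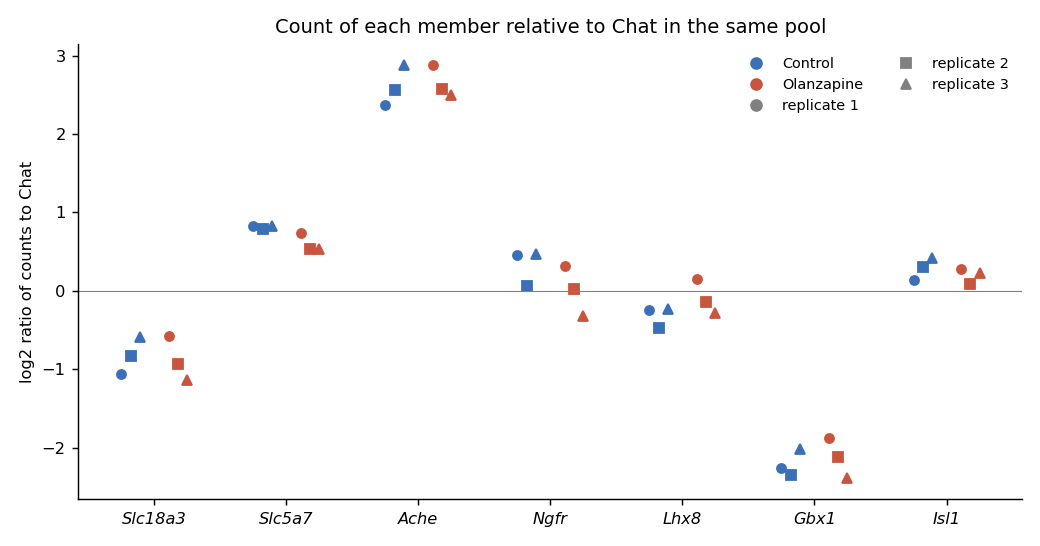
Log2 ratio of the counts of each of 7 genes to those of Chat in the same pool (counts are not corrected for gene length). For Slc5a7 the 3 control pools lie between 0.79 and 0.82 and the 3 olanzapine pools between 0.54 and 0.74, and for the other 6 genes the groups overlap.

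The wider pathway was described by 4 lists with 50 genes, of which 45 were tested. By edgeR 0 of the 45 were called (background 1.01%), 1 had an adjusted p under 0.05 regardless of fold (background 2.32%), and 10, or 22.2%, had an unadjusted p under 0.05 (background 17.6%). With DESeq2, the method the study used, 6 of the 45 had an adjusted p under 0.05, 3 of them muscarinic receptors (background 6.69%). The groups did not overlap in 10 genes (22.2%, background 24.3%), with 4 higher and 6 lower with olanzapine. Their median log2 fold change was -0.0673, with 16 above and 29 below 0. DESeq2 called 1, *Slc44a4*, and limma called 0.

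In the list of trophic and identity genes, 11 of 11 were tested and 0 passed an adjusted p under 0.05. *Slc10a4* stood at 24.9, 20.4 and 15.7 CPM on control chow, and at 14.5, 19.2 and 18.8 CPM on olanzapine chow (log2 fold change -0.22, SE 0.18, adjusted p = 0.582, edgeR). Only *Ldb1*, a partner of LIM-homeodomain proteins such as *Lhx8* and *Isl1*, had groups without overlap, at 112 ± 1.24 and 126 ± 1.78 CPM (adjusted p = 0.185, edgeR).

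In the list for choline supply and acetylcholine breakdown, 12 of 13 were tested and *Chka* rose. *Chka* encodes choline kinase alpha, which phosphorylates choline for phosphatidylcholine synthesis and so uses the same substrate as *Chat*. It stood at 48.6, 51.8 and 47.0 CPM on control chow, and at 77.4, 75.2 and 81.5 CPM on olanzapine chow. Every olanzapine pool lay above every control pool, with a log2 fold change of 0.67 (SE 0.07, 95% interval 0.51 to 0.83, adjusted p = 0.00363, edgeR), below the 2-fold limit. The hepatocyte and nuclear-retained RNA markers were higher in the same pools, and their part in the *Chka* level was not tested. *Slc44a4*, a choline transporter-like protein, had 16, 25 and 17 counts on control chow and 4, 3 and 2 on olanzapine chow (log2 fold change -2.61, SE 0.55, adjusted p = 0.0551 by edgeR and 0.0250 by DESeq2), a value that rests on few counts. *Slc44a5* was at -0.46 on the log2 scale (adjusted p = 0.118 by edgeR and 0.0333 by DESeq2) and *Flvcr1*, a choline transporter, 0.27 (adjusted p = 0.211, edgeR). *Bche* and *Prima1*, which encode butyrylcholinesterase and the membrane anchor of acetylcholinesterase, were at -0.19 and -0.07 (adjusted p = 0.721 and 0.797, edgeR).

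Receptors of acetylcholine lie on the cells that receive it and, as autoreceptors, on cholinergic neurons themselves. Which cells the receptor RNA came from was not tested. In the nicotinic list 17 of 21 genes were tested and 0 passed an adjusted p under 0.05, and the groups did not overlap for *Chrnb2*, the main beta subunit of brain nicotinic receptors (log2 fold change -0.29, adjusted p = 0.175, edgeR), and *Tmem35a*, a chaperone of nicotinic receptors (-0.16, adjusted p = 0.307, edgeR). All 5 muscarinic receptors were tested and 0 passed by edgeR. *Chrm2*, an autoreceptor of cholinergic terminals, stood at 48.3, 34.5 and 30.5 CPM on control chow, and at 24.9, 26.6 and 25.9 CPM on olanzapine chow (log2 fold change -0.55, SE 0.16, adjusted p = 0.134 by edgeR and 0.0271 by DESeq2). *Chrm4*, abundant in striatal neurons, was at a log2 fold change of 0.46 (adjusted p = 0.120 by edgeR and 0.0305 by DESeq2) and *Chrm5* of -0.98 (adjusted p = 0.154 by edgeR and 0.0445 by DESeq2), and neither overlapped between the diets.

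**Figure D5:**
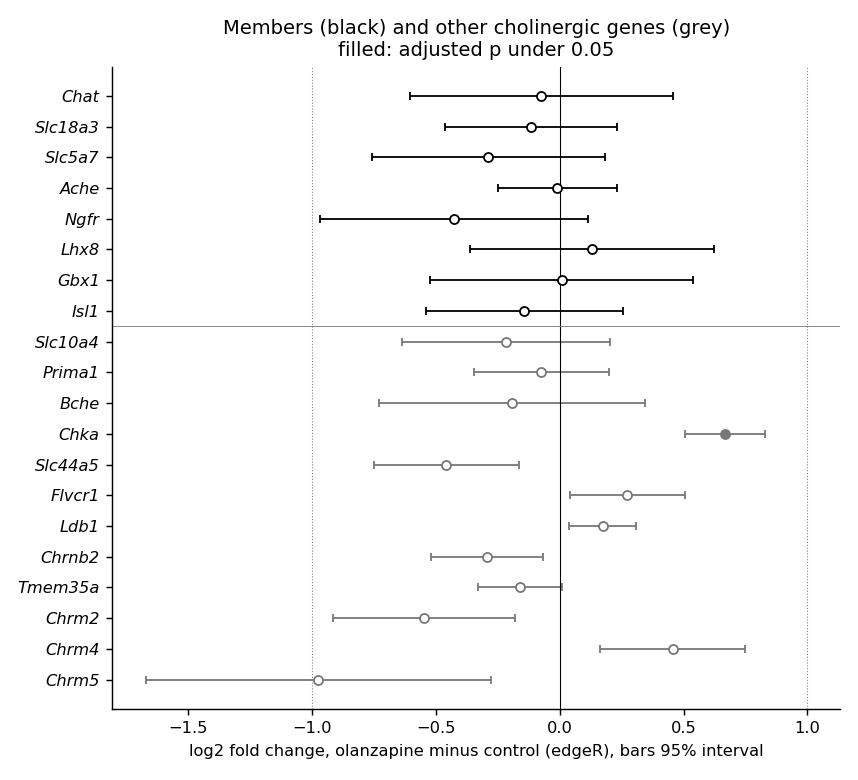
Log2 fold change (olanzapine minus control, edgeR) with its 95% interval for the 8 members (black) and 12 other cholinergic genes (grey, without Slc44a4, whose -2.61 lies off the scale), filled where the adjusted p was under 0.05. All member intervals include 0 and stay within -1 and 1, and Chka is the only filled point.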

How the data were processed

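RNA-seq of 6 pools of dissected mouse septum was analysed. The authors trimmed 150-base paired-end reads with fastp, mapped them to mm10 with HISAT2 and counted reads per gene with HTSeq-count (versions, gene annotation, strand setting and treatment of multi-mapping reads are not given in the sources used here). They deposited a table of raw counts and a table of FPKM, and all sample columns were used (0 unused). Pools were grouped by the treatment label.

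Counts were tested with edgeR 4.0.16 (R 4.3.3, quasi-likelihood, TMM, filterByExpr at 10 counts and a total of 15, Benjamini-Hochberg over 17255 genes), and called genes had an adjusted p under 0.05 together with a log2 fold change beyond 1 or -1. This fit used all 6 libraries and no covariate. CPM were computed from TMM-scaled library sizes. Alternatives were DESeq2 1.42.0, the method the study used, other scalings and filters, limma 3.58.1 on log2(FPKM + 1), for which genes under a mean of 0.1 FPKM were removed, and leaving out each pool. Correlations used log2 CPM with a prior count of 2, and ratios to *Chat* used counts plus 0.5. The main edgeR fit, DESeq2 and limma on log2(FPKM + 1) were first run on simulated data with changes larger than the 2-fold limit. The other alternatives, and smaller changes, were not simulated. Locations came from GENCODE.

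The members and gene lists were chosen with earlier results of these data known. Genes named beyond the members were those of the 4 cholinergic pathway lists that were called or whose groups did not overlap, *Slc10a4*, *Bche* and *Prima1*, and the genes with the highest r. *AI606473*, the GABAergic genes, *Lhx6*, *Nkx2-1*, *Slc17a6*, *Pvalb*, *Mnx1*, *Prph*, *Pou4f1*, *Sort1* and *Ldb2* were named after their values were seen. Some listed genes are counted but not reported here by name.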

Additional observations from a re-analysis of the deposited data

How the results depend on the processing

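The count of members called stayed at 0 under every alternative run, and their adjusted p was never below 0.261. The members' median log2 fold change was between -0.1012 and -0.0458 under other tools, scalings, filters and pseudocounts, and between -0.2263 and 0.0531 when each pool was left out, turning positive without Control 1 (0.0531) and without Olanzapine 1 (0.0066). Single members near 0 turned direction without reaching significance. On the FPKM scale *Ache* came to 0.018 in the limma fits at a pseudocount of 1 (filtered or not) and to 0.019 at 0.1. When each pool was left out, *Ache* was between -0.075 and 0.098 (0.040 without Olanzapine 1), *Chat* between -0.25 and 0.17 (0.074 without Olanzapine 1), *Isl1* between -0.27 and 0.0077, *Lhx8* between -0.023 and 0.42 and *Gbx1* between -0.10 and 0.23 (-0.068 without Control 2 and -0.089 without Olanzapine 2). The highest of these values were those without Control 1, and the lowest those without Control 3. The count of other pathway genes called, 0 in edgeR, was 1 with no limit on the fold (*Chka*), 1 at an unadjusted p with the fold limit (*Slc44a4*) and 1 with DESeq2 (*Slc44a4*). *Chka* had an adjusted p under 0.05 in all 15 alternative fits. With the replicate number as a block the counts called stayed at 0 for the members and for the pathway genes, and the members' median was -0.0788. Deviations of same-numbered pools correlated at -0.0026, 0.062 and -0.25, so the numbers were not taken to pair the pools. With 3 pools of 3 mice a diet, changes smaller than the printed intervals could not be told from 0.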
